A study of Mus musculus with 8 samples.

Results

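The mitogen-activated protein (MAP) kinase cascades and the dual-specificity phosphatases were followed at the mRNA level in adipocytes that received siRNA against Erk3 (siErk3), the atypical MAP kinase encoded by Mapk6, or a nontargeting siRNA (siNTC). Members were taken by symbol alone, as every row of the count table named Mapk, Map2k, Map3k, Map4k or Dusp with a number, or Mapkapk with a digit. This gave 58 of 18088 gene rows, with 8 Mapk, 3 Mapkapk, 8 Map2k, 15 Map3k, 5 Map4k and 19 Dusp rows. They carry 57 symbols, since Map2k7 has 2 rows. All 58 passed the filter on low counts. Counts scaled to the size of the library are given as CPM. All rows of the table exceeded 1 CPM in 4 or more libraries, and 56 members were above 1 CPM in all 8. Dusp13 passed this level in 3 siNTC and 4 siErk3 libraries, and Dusp8 in 1 siNTC and 4 siErk3 libraries, so that Dusp8 is in the table because of its siErk3 values. The table had no row named Mapk4, Mapk10, Mapk12, Mapk13, Mapk15, Map3k9, Map3k19, Map3k21, Dusp2, Dusp15, Dusp21, Dusp26 or Dusp27, so these were not analysed here.

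The cells were wildtype 3T3-L1, a mouse line that differentiates in culture into adipocyte-like cells. Mature cells were detached with Accutase, transfected in suspension with Dharmafect-Duo and 1.25 nM siRNA per square centimeter, and used after 48 h. Each of the 2 groups has 4 libraries. Whether the libraries of a group came from separate cultures is not given in the sources used here, and the p-values cover no more than the variation among these libraries, which may be technical.

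Libraries held 9854522 to 9943572 counts. Members took 0.275% to 0.283% of them in siNTC and 0.248% to 0.254% in siErk3. Without Mapk6, the members held 21936 to 22339 counts in siNTC and 23909 to 24369 counts in siErk3. In CPM these other members summed to 2289 to 2308 in siNTC and 2342 to 2384 in siErk3. The fall in the share of all members thus lay in Mapk6, and the other members together did not fall. Genes are called higher or lower in siErk3 at an adjusted p under 0.05, as were 24.9% and 23.8% of all genes tested. Of 10 adipocyte markers, 9 were lower and 1 higher in siErk3. Their summed level was 30520 to 33000 CPM in siNTC and 18120 to 19270 CPM in siErk3. Of 6 preadipocyte and fibroblast markers, 5 were measured and all 5 were lower, with a summed level of 1561 to 1714 CPM in siNTC and 1197 to 1280 CPM in siErk3. The macrophage and leukocyte list had 2 of 6 markers in the table, of which 1 was higher, and summed to 6.82 to 9.92 CPM in siNTC and 6.53 to 9.97 CPM in siErk3, with no row for Ptprc, Adgre1, Itgam or Lyz2. The higher marker, Cd68, had 5 to 11 counts in siNTC and 15 to 22 in siErk3, and is in the table because of its siErk3 values. Of 4 endothelial markers only Pecam1 was measured, at 0.52 to 1.26 CPM in siNTC and 1.17 to 1.58 CPM in siErk3, and it was not called. All 15 interferon-stimulated genes of a list were higher, with sums of 134.9 to 149 CPM in siNTC and 5351 to 5570 CPM in siErk3. Among them, Oas1a was at 0 in every siNTC library and at 114 ± 2.14 CPM (SD, n = 4) in siErk3, Rsad2 went from 0.105 to 218 CPM and Mx1 from 0.078 to 128 CPM. Oas1a, Rsad2, Mx1, Cmpk2, Ifit1 and Oasl2 were below 1 CPM in every siNTC library and are in the table because of their siErk3 values. Their rises were therefore favored by the filter of the table, and the list was written with earlier results of these data known. The part of these shifts in the results given here was not tested, and in bulk RNA fewer cells of a type cannot be told apart from less RNA per cell.

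In a MAP kinase cascade a MAP3K phosphorylates a MAP2K, which phosphorylates both the threonine and the tyrosine in the activation loop of a MAP kinase, and Map4k products act on MAP3Ks. Dual-specificity phosphatases of the MKP class remove these phosphates again, and several are transcribed in response to the kinases that they switch off. Erk3 is atypical. Its activation loop has a serine in place of the usual threonine and tyrosine motif, no MAP2K is known to act on it, the protein is short-lived, and its best known partner is MK5, the product of Mapkapk5. In adipocytes, the conventional MAP kinases are known for roles in differentiation, insulin action and the response to adrenergic and inflammatory signals.

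The siRNAs are shown because they define the depletion and can be compared with the sequence of each relative. The study obtained siRNAs as pools, and the sequences are the 4 listed for Mapk6 in its kinase screen. Which pool went into the sequenced cells is not given in the sources used here. Each is printed as the sense strand, and capitals mark the bases that pair with the seed (positions 2 to 8) of the guide strand.
siRNA 1: ugacguaguugACAAGUUa
siRNA 2: gaaggaggauuCCGAAAUg
siRNA 3: gagcaugacugGCCUAUUc
siRNA 4: agagcgagguuAACCAUUa
On mm10 these matched the minus strand at chr9:75388571-75388589, chr9:75388295-75388313, chr9:75389107-75389125 and chr9:75388815-75388833, in that order. All 4 lie in the coding part of exon 6 of 6 of Mapk6 and in 2 of its annotated transcripts. In the transcripts of the other members the longest run shared with siRNA 1 was 9 bases, with siRNA 2 it was 10 (Dusp1), with siRNA 3 it was 11 (Map2k6) and with siRNA 4 it was 9. The seed matches were also searched in the annotated 3′ UTRs of 12393 genes. ACAAGTT was found in 10.8% of genes and in Map3k12, Map3k2, Map3k3, Map3k7 and Mapkapk2, among others. CCGAAAT was found in 1.65% of genes and in no member. GCCTATT occurred in 5.97% of genes and in Dusp3, Map3k2, Map3k20 and Map3k3, and AACCATT in 11.5% of genes and in Dusp1, Map3k2, Map3k20 and Map3k7. Of the carriers named, Map3k3, Map3k7 and Map3k12 were lower in siErk3, Dusp3 and Mapkapk2 were higher, and Dusp1, Map3k2 and Map3k20 were not called. Such a match is a description and no evidence of binding, and its part in any of these results was not tested.

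Mapk6 (ENSMUSG00000042688, mm10 chr9:75369062-75410005, minus strand) was the one member whose level fell more than 2-fold. In siNTC libraries 1 to 4 it stood at 588, 572, 558 and 599 CPM, and in siErk3 libraries 1 to 4 at 74.8, 71.6, 68.5 and 63.5 CPM. The groups were far apart and each was narrow. The log2 fold change was -3.06 (SE 0.06, adjusted p = 2.09e-22, edgeR quasi-likelihood test), and the exact two-sided permutation test gave p = 0.0286, the smallest that 4 libraries against 4 allow.

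To set Mapk6 against its relatives, levels were divided by exon length and are given as CPM per kilobase. In siNTC adipocytes Mapk6 was first among all 58 rows, at 86.8 ± 2.71 (SD, n = 4), and 2.68 to 3.30 times the level of Mapk3 in the same library. Within the Mapk family, next came Mapk3 (ERK1) at 29.5 ± 2.18, Mapk14 (p38α) at 25.7 ± 0.80 and, farther down, Mapk9 (JNK2) at 10.5 ± 0.72, and the libraries of these genes did not overlap. Mapk8 (JNK1) at 5.14 and Mapk7 (ERK5) at 4.84 overlapped and were not distinguished, and Mapk11 (p38β) was last at 0.86. A pseudogene of Mapk6, described below, lies in an intron of Mapk8. Whether its reads were counted for Mapk8 is not given, so the level and place of Mapk8 are uncertain in both groups. Mapk6 mRNA thus made up 46.1% to 48.8% of the summed per-kilobase level of the 8 Mapk genes.

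After siErk3, Mapk6 was at 10.4 ± 0.72 CPM per kilobase (SD, n = 4), at place 5 among the 8 Mapk genes and place 17 among all rows, and its share of the Mapk sum was 8.40% to 9.74%. The order was then Mapk3 at 32.1 ± 0.72, Mapk14 at 28.8 ± 0.47, and farther down Mapk9 at 12.5 ± 0.51, Mapk6, Mapk7 at 6.12, Mapk8 at 3.01 and Mapk11 at 0.89, with no overlap between these genes. Depleted cells therefore still held more Mapk6 mRNA per kilobase than Mapk7, Mapk8 or Mapk11 mRNA. The order of the Mapk genes was the same in both groups with the length of the longest transcript and with scaling by library size alone.

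**Figure D1:**
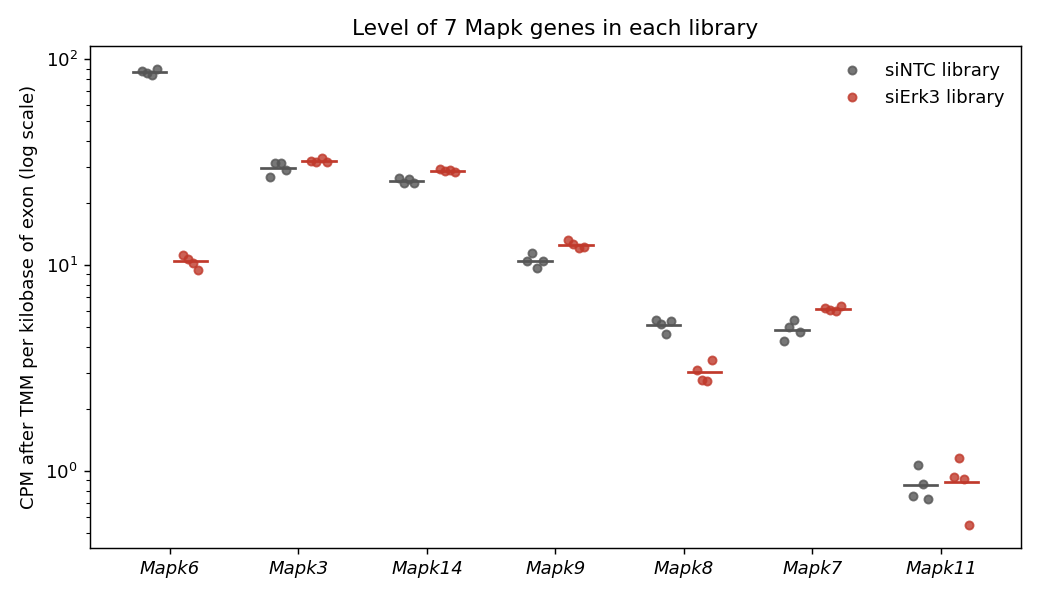
Level of 7 Mapk genes (x axis) in CPM after TMM per kilobase of exon (y axis, log scale) in each of 4 siNTC (gray) and 4 siErk3 (red) libraries, with lines at the group means. Mapk6 went from 86.8 to 10.4 while Mapk3, Mapk14 and Mapk9 stayed within 1.20-fold of their siNTC means.

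Of the 58 rows, 35 (60.3%) passed an adjusted p under 0.05, 22 higher and 13 lower in siErk3. Among all 17972 genes tested the same share was 48.7%, with 24.9% higher and 23.8% lower. Without Mapk6, 34 of 57 rows (59.6%) were called, 22 higher and 12 lower. Values did not overlap between the groups in 32 rows, 21 higher and 11 lower, against 43.2% of all genes (22.5% higher, 20.7% lower). The median log2 fold change was 0.08 over members and 0.0009 over all genes, and the median size of the change was 0.27 and 0.25. Beyond 2-fold lay Dusp8, Dusp5 and Map3k8 above and Mapk6 below, and 6.38% of all genes tested were called with a change of that size. With upper-quartile scaling, which moved the median of all genes by -0.07, the split was 16 higher and 17 lower, and with library size alone, which moved it by 0.09, 26 higher and 11 lower.

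**Figure D2:**
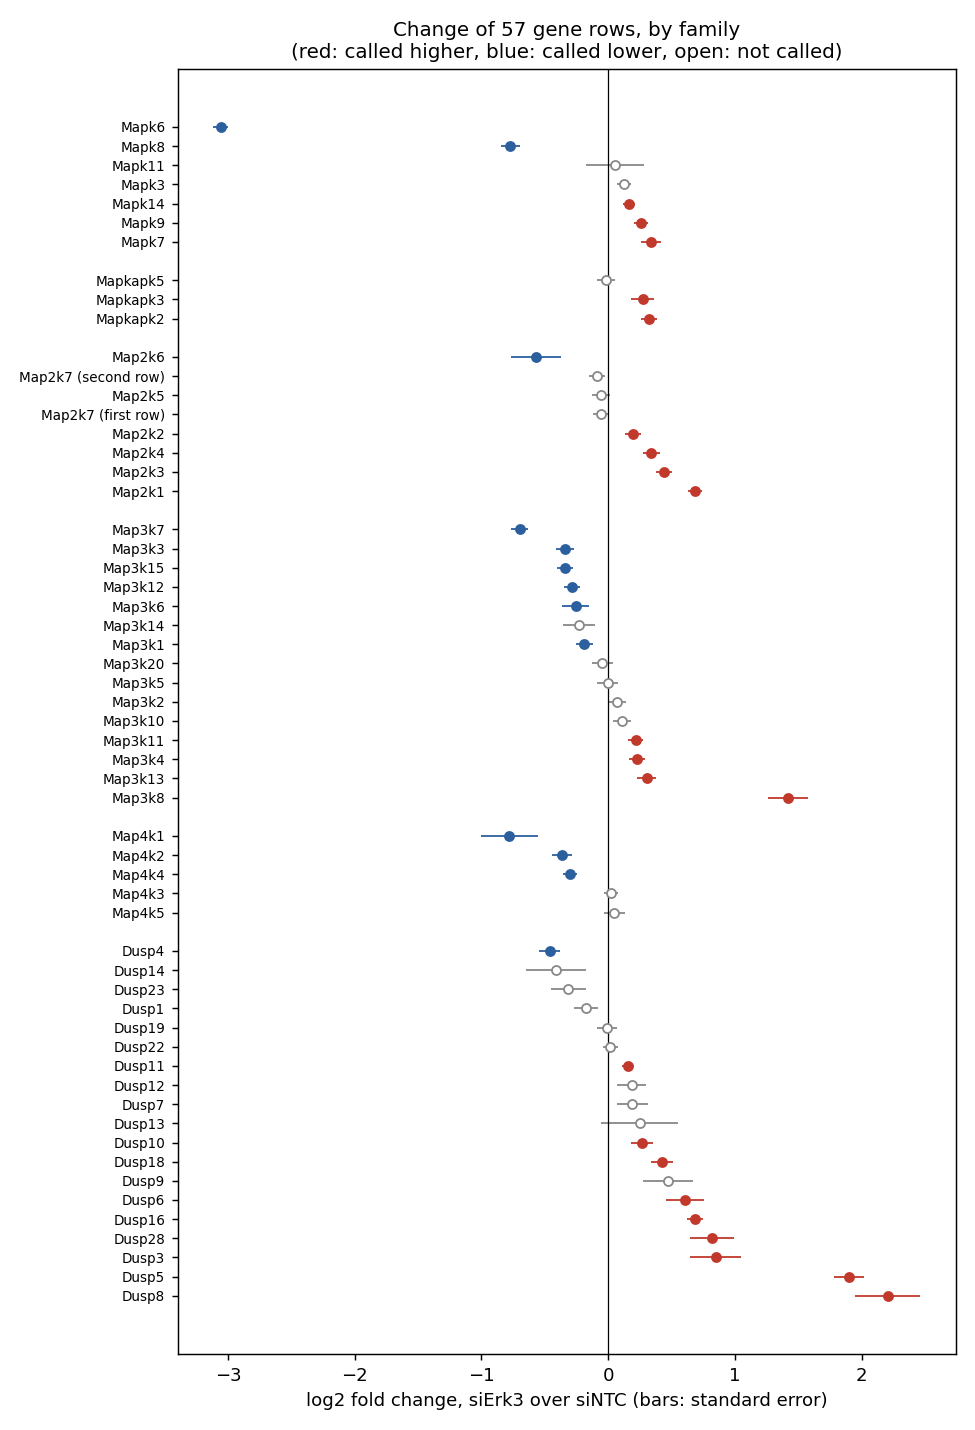
Log2 fold change of siErk3 over siNTC (x axis) with its standard error for 57 of the 58 gene rows (y axis), grouped by family, from edgeR over 4 against 4 libraries. Filled red and blue points are the 22 higher and 13 lower rows, open points were not called, and Mapk6 at -3.06 stands apart from the next lowest row at -0.78.

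Of the 7 other Mapk genes, 3 were higher, 1 was lower and 3 were not called, beside 24.9% higher and 23.8% lower over all genes tested. Mapk7, which encodes ERK5, a large MAP kinase activated by MEK5, read 18.7, 22.0, 23.7 and 20.7 CPM in siNTC and 27.1, 26.6, 26.3 and 27.7 CPM in siErk3. The groups were apart, with a log2 fold change of 0.34 (SE 0.08, adjusted p = 1.05e-03). Mapk9, encoding the stress-activated kinase JNK2, read 70.9, 77.4, 65.3 and 70.9 CPM in siNTC and 89.5, 86.1, 81.9 and 82.9 CPM in siErk3. It rose by 0.26 on the log2 scale (SE 0.06, adjusted p = 7.88e-04). Mapk14, the main p38 gene here, went from 112 ± 3.52 to 126 ± 2.06 CPM (SD, n = 4), a small rise of 0.16 (adjusted p = 9.08e-03), and with upper-quartile scaling it was 0.09 and not called.

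Mapk3, which encodes ERK1, a classical MAP kinase downstream of Ras, was not called. It read 60.3, 70.7, 70.3 and 65.0 CPM in siNTC and 72.1, 71.6, 74.9 and 71.6 CPM in siErk3. All siErk3 libraries lay above all siNTC libraries, by a margin smaller than the spread within siNTC, and the difference of 0.12 (SE 0.06) had an adjusted p of 0.0841. Mapk3 passed the threshold without siNTC replicate 2 (0.15) or replicate 3 (0.15), and with scaling by library size alone (0.21). Mapk11 was near the floor of the table at 2.47 ± 0.45 and 2.57 ± 0.73 CPM (SD, n = 4; adjusted p = 0.867), too few counts (16 to 34 per library) to show a change of this size.

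Mapk8, encoding JNK1, went against Mapk9. It read 62.3, 59.1, 52.8 and 61.1 CPM in siNTC and 35.3, 31.5, 31.3 and 39.7 CPM in siErk3. The lowest siNTC library was above the highest siErk3 library, and the log2 fold change was -0.77 (SE 0.07, adjusted p = 7.23e-09). Of the counts of both JNK genes, Mapk8 had 43.3% to 46.8% in siNTC and 26.8% to 32.4% in siErk3, a share that does not depend on library scaling.

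A processed pseudogene of Mapk6, Gm49037, lies inside Mapk8. It spans 384 bases on the minus strand at chr14:33428642-33429025, within an intron of Mapk8 (chr14:33377898-33447158, same strand), 17618 and 17990 bases from the nearest Mapk8 exons. All 366 of its 19-base words occur in Mapk6 transcripts, none occurs in Mapk8 transcripts, and the site of siRNA 2 lies whole inside it. Its own row read 35.1, 31.2, 28.3 and 32.5 CPM in siNTC and 2.80, 1.97, 3.50 and 3.07 CPM in siErk3. It fell with Mapk6, by 28.9 CPM on the group means, beside a fall of 24.4 CPM for Mapk8. Whether reads in introns were counted for Mapk8 is not given in the sources used here, and the part of the pseudogene in the Mapk8 result was not tested.

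**Figure D3:**
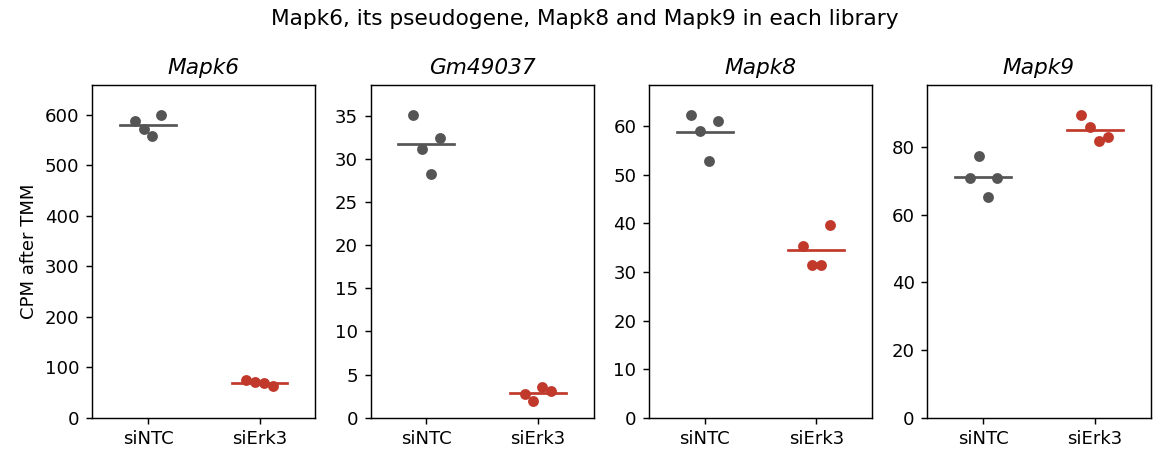
CPM after TMM (y axes, each from 0) of Mapk6, its pseudogene Gm49037 in an intron of Mapk8, Mapk8 and Mapk9 in 4 siNTC (gray) and 4 siErk3 (red) libraries, with lines at group means. The first 3 were lower in every siErk3 library, while Mapk9 rose from 71.1 to 85.1 CPM.

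Of the 3 Mapkapk genes, kinases that are phosphorylated by MAP kinases, Mapkapk5 is the one whose product MK5 pairs with Erk3. It read 33.9, 32.4, 35.6 and 29.1 CPM in siNTC and 34.0, 31.4, 32.6 and 31.7 CPM in siErk3, fully overlapping (log2 fold change -0.02, SE 0.07, adjusted p = 0.873). Exons of Adam1a and Gm42878, on the same strand, overlap 56.5% of its exon length, so its level is uncertain. Mapkapk2 (MK2), which controls mRNA stability downstream of p38, went from 42.2, 45.0, 48.3 and 48.2 CPM to 56.2, 53.7, 60.6 and 59.2 CPM. The groups were apart and the rise was 0.32 (SE 0.06, adjusted p = 1.37e-04). Mapkapk3 (MK3) rose from 15.8 ± 1.06 to 19.1 ± 1.75 CPM (SD, n = 4; log2 fold change 0.27, adjusted p = 0.0150), a call that was lost without siErk3 replicate 3 (0.21) and with upper-quartile scaling (0.20).

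Of the 8 Map2k rows, 4 were higher, 1 was lower and 3 were not called. The called share was 62.5%, against 48.7% of all genes tested. Both MAP2Ks of ERK rose. Map2k1 (MEK1) read 82.8, 76.6, 74.2 and 76.2 CPM in siNTC and 120.4, 124, 123 and 130.1 CPM in siErk3. The groups were far apart. The log2 fold change was 0.68 (SE 0.05, adjusted p = 2.64e-10). Per kilobase, Map2k1 went from sixth among all rows at 22.8 ± 1.096 to first at 36.6 ± 1.22 CPM per kilobase (SD, n = 4). In siNTC its libraries (21.9 to 24.4) overlapped those of a Map2k7 row (22.2 to 25.7) and of Map4k4 (20.3 to 23.0), so its place there is not distinct. Places among all rows were not checked with another length. Map2k2 (MEK2) rose less, from 58.7 ± 4.54 to 67.3 ± 3.75 CPM (SD, n = 4; log2 fold change 0.20, adjusted p = 0.0116), with overlap between the groups, and the call was lost without siErk3 replicate 3 (0.16) and with upper-quartile scaling (0.13). The share of Map2k1 in the counts of both was 53.9% to 59.9% in siNTC and 62.9% to 65.9% in siErk3.

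Of the JNK activators, Map2k4 (MKK4) rose and Map2k7 (MKK7) was not called. Map2k4 went from 44.8, 45.9, 40.2 and 43.6 CPM to 50.8, 61.4, 53.3 and 55.4 CPM (log2 fold change 0.34, SE 0.07, adjusted p = 1.48e-04), without overlap. The 2 rows of Map2k7 stood at 62.7 ± 4.35 and 67.5 ± 4.51 CPM in siNTC and at 60.4 ± 4.15 and 63.6 ± 4.87 CPM in siErk3 (SD, n = 4; adjusted p = 0.499 and 0.278). These are ENSMUSG00000002948 and ENSMUSG00000109061. The second is called Gm49320 in GENCODE M21 and all 2879 bases of its exons overlap Map2k7 (1349 bases) or Tgfbr3l on the same strand, so that the rows can share reads and are not independent measurements.

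Of the p38 activators, Map2k3 (MKK3) rose from 36.6, 37.4, 39.4 and 33.7 CPM to 45.5, 50.5, 51.5 and 51.9 CPM (log2 fold change 0.44, SE 0.07, adjusted p = 5.86e-06). Map2k6 (MKK6), on 19 to 39 counts per library, went the other way. It read 2.60, 3.41, 3.86 and 4.10 CPM in siNTC and 2.61, 2.27, 2.63 and 1.88 CPM in siErk3, and siNTC replicate 1 lay among the siErk3 values. Its change of -0.57 (SE 0.20, adjusted p = 0.0203) was not called by DESeq2 (-0.58), nor without siNTC replicate 3 (-0.52), siNTC replicate 4 (-0.48) or siErk3 replicate 4 (-0.48). Map2k5 (MEK5), the activator of ERK5, was at 29.2 ± 1.64 and 28.0 ± 1.98 CPM (SD, n = 4; adjusted p = 0.540).

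**Figure D4:**
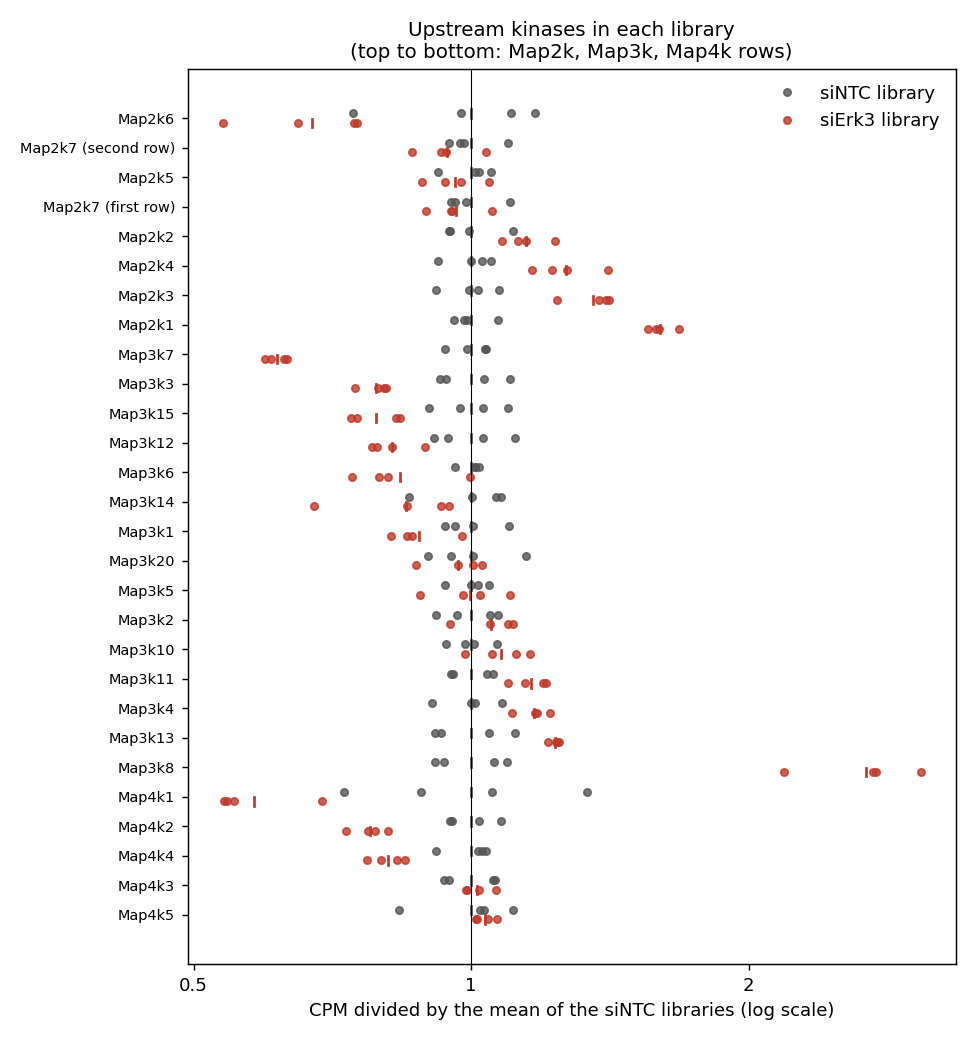
CPM of each Map2k, Map3k and Map4k row (y axis) in 4 siNTC (gray) and 4 siErk3 (red) libraries, relative to the siNTC mean of the same row (x axis, log scale), with short lines at group means. Map3k8 lies farthest right at 2.68 times and Map4k1 and Map3k7 farthest left at 0.58 and 0.62 times the siNTC mean.

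Among the 15 Map3k rows, 4 were higher, 6 lower and 5 not called, a called share of 66.7% against 48.7% of all genes tested. Map3k8 (Tpl2, ENSMUSG00000024235), a MAP3K that feeds MEK1 and ERK in the response to inflammatory stimuli, changed most. It read 3.02, 2.58, 2.92 and 2.53 CPM in siNTC and 7.54, 8.49, 7.59 and 6.03 CPM in siErk3. The groups were far apart, and the log2 fold change was 1.42 (SE 0.16, adjusted p = 8.50e-08) on 24 to 29 and 61 to 86 counts.

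Map3k7 (TAK1, ENSMUSG00000028284), the MAP3K that couples cytokine and TGF-β receptors to JNK, p38 and NF-κB, went the opposite way. It read 47.1, 47.3, 42.7 and 45.0 CPM in siNTC and 27.6, 28.5, 28.7 and 27.2 CPM in siErk3. Both groups were tight, and the log2 fold change was -0.70 (SE 0.06, adjusted p = 2.83e-09). Map3k3 (MEKK3) fell from 38.4 ± 3.17 to 30.3 ± 1.08 CPM (SD, n = 4; log2 fold change -0.34, adjusted p = 2.71e-04). Map3k2, which encodes the related MEKK2, was not called, at 43.2 ± 3.08 and 45.4 ± 3.15 CPM (adjusted p = 0.396).

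Map3k15 (ASK3), of the apoptosis signal-regulating kinases that sense osmotic and oxidative stress, had the highest level of any MAP3K in siNTC, at 31.2 ± 2.63 CPM per kilobase. It fell from 139.7, 132, 122 and 149 CPM to 100.3, 112, 102 and 113 CPM (log2 fold change -0.34, SE 0.06, adjusted p = 8.57e-05). Exons of Pdha1, on the other strand, cover 13.9% of its exon length, so its level and its place among the MAP3Ks are uncertain. Map3k13 (LZK), a mixed-lineage kinase of the JNK branch, rose from 28.2 ± 2.73 to 34.8 ± 0.45 CPM (SD, n = 4; log2 fold change 0.30, adjusted p = 1.27e-03), and Map3k10 (MLK2), of the same class, was not called (27.6 ± 1.46 and 29.7 ± 2.09 CPM, adjusted p = 0.225). The other 5 called Map3k genes changed by less, from -0.28 for Map3k12 to 0.23 for Map3k4. Other-strand exons also cover 14.8% of the exon length of Map3k10 (Ttc9b) and 19.3% of that of Map3k12 (Gm10337 and Pcbp2), so their levels are uncertain too.

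None of the 5 Map4k genes was higher and 3 were lower, beside 24.9% higher and 23.8% lower over all genes tested. Map4k4, the kinase of this family known in adipocytes as a negative regulator of insulin-stimulated glucose uptake, read 218, 219.9, 194 and 215 CPM in siNTC and 176, 163, 169 and 179.7 CPM in siErk3. The groups were apart, with a log2 fold change of -0.30 (SE 0.05, adjusted p = 6.97e-05). Map4k2 fell from 25.4 ± 1.56 to 19.7 ± 0.85 CPM (SD, n = 4; -0.37, adjusted p = 3.72e-04). Map4k1 (HPK1), known mainly from blood cells, read 3.02, 3.82, 2.09 and 2.53 CPM in siNTC and 1.55, 1.97, 1.56 and 1.58 CPM in siErk3, a change of -0.78 (SE 0.23, adjusted p = 6.52e-03) on 16 to 37 counts. Map4k3 at 106 ± 7.19 and 108 ± 3.78 CPM and Map4k5 at 21.4 ± 2.51 and 22.1 ± 0.56 CPM were not called (adjusted p = 0.771 and 0.670).

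Of the 19 Dusp rows, 9 were higher, 1 was lower and 9 were not called, and the median log2 fold change was 0.25. The called share of 52.6% was near the 48.7% of all genes tested, of which 24.9% were higher and 23.8% lower. Dusp8, Dusp10 and Dusp16 were grouped here as MKPs of JNK and p38, and all 3 rose. This group does not hold every MKP that acts on these kinases. Dusp1, grouped here with the nuclear MKPs, was not called (-0.18). Dusp8 (ENSMUSG00000037887) read 0.52, 1.14, 0.52 and 0.95 CPM in siNTC and 4.06, 3.16, 3.21 and 4.15 CPM in siErk3. The counts were 5 to 11 and 32 to 42, and the log2 fold change of 2.20 (SE 0.26, adjusted p = 1.68e-07) was the largest rise of any member. Dusp8 exceeded 1 CPM in 1 siNTC and 4 siErk3 libraries and is in the table because of its siErk3 values. Its rise and rank were therefore favored by the filter of the table. Dusp16 (MKP7), a phosphatase that prefers JNK, read 30.5, 31.6, 27.3 and 29.6 CPM in siNTC and 48.2, 47.3, 47.2 and 48.2 CPM in siErk3. It rose by 0.68 (SE 0.06, adjusted p = 3.82e-09). Dusp10 (MKP5) rose from 19.9 ± 2.05 to 23.9 ± 1.57 CPM (SD, n = 4; 0.27, adjusted p = 0.0118) with overlapping groups, and it was not called without siNTC replicate 1 (0.22) or with upper-quartile scaling (0.20).

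The nuclear MKPs, which are classical immediate-early genes, moved apart. Dusp5, a phosphatase specific for ERK, read 4.48, 4.54, 4.38 and 3.58 CPM in siNTC and 17.6, 14.4, 16.0 and 15.5 CPM in siErk3. The log2 fold change was 1.90 (SE 0.12, adjusted p = 4.59e-12), and AC137853.2 overlaps 22.1% of its exon length on the other strand. Dusp4 (MKP2) was the one Dusp gene called lower, from 40.6, 34.1, 37.2 and 39.9 CPM to 30.05, 27.7, 23.4 and 28.9 CPM (-0.46, SE 0.08, adjusted p = 3.80e-05). The share of Dusp5 in the counts of both was 8.23% to 11.8% in siNTC and 34.2% to 40.6% in siErk3. Dusp1 (MKP1) read 18.02, 19.3, 16.8 and 19.04 CPM in siNTC and 15.9, 18.9, 16.1 and 13.9 CPM in siErk3, overlapping and not called (-0.18, SE 0.09, adjusted p = 0.129). It was called lower without siErk3 replicate 2 (-0.26) and with upper-quartile scaling (-0.25).

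Of the cytoplasmic MKPs of ERK, Dusp6 (MKP3), a feedback inhibitor whose transcription follows ERK activity, read 4.79, 3.62, 5.64 and 4.21 CPM in siNTC and 6.18, 7.80, 7.11 and 6.72 CPM in siErk3. It rose by 0.61 (SE 0.15, adjusted p = 1.74e-03). Dusp7 at 8.36 ± 1.12 and 9.54 ± 0.86 CPM and Dusp9 at 2.40 ± 0.56 and 3.33 ± 0.34 CPM were not called (adjusted p = 0.204 and 0.0510).

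Of the 10 atypical Dusp genes, small phosphatases that mostly lack the MAP kinase-binding domain, 4 were higher and none was called lower. Their called share was 40%, against 48.7% of all genes tested. Dusp3 (VHR), which can dephosphorylate ERK and JNK, rose from 2.71, 2.48, 2.61 and 1.47 CPM to 5.12, 3.95, 3.50 and 4.15 CPM (0.85, SE 0.20, adjusted p = 1.19e-03). It has 14 to 53 counts, and Gm20659 overlaps 12.9% of its exon length. Dusp28 rose from 2.40, 3.72, 4.07 and 2.74 CPM to 5.99, 5.23, 6.42 and 5.14 CPM (0.82, SE 0.17, adjusted p = 4.10e-04). Dusp18 rose from 19.4 ± 1.104 to 26.0 ± 2.77 CPM (SD, n = 4; 0.43, adjusted p = 2.31e-04). Dusp22 at 51.6 ± 3.05 and 52.2 ± 3.05 CPM and Dusp19 at 26.3 ± 2.44 and 26.1 ± 0.94 CPM, the uncalled Dusp genes with the highest CPM, overlapped (adjusted p = 0.843 and 0.919).

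**Figure D5:**
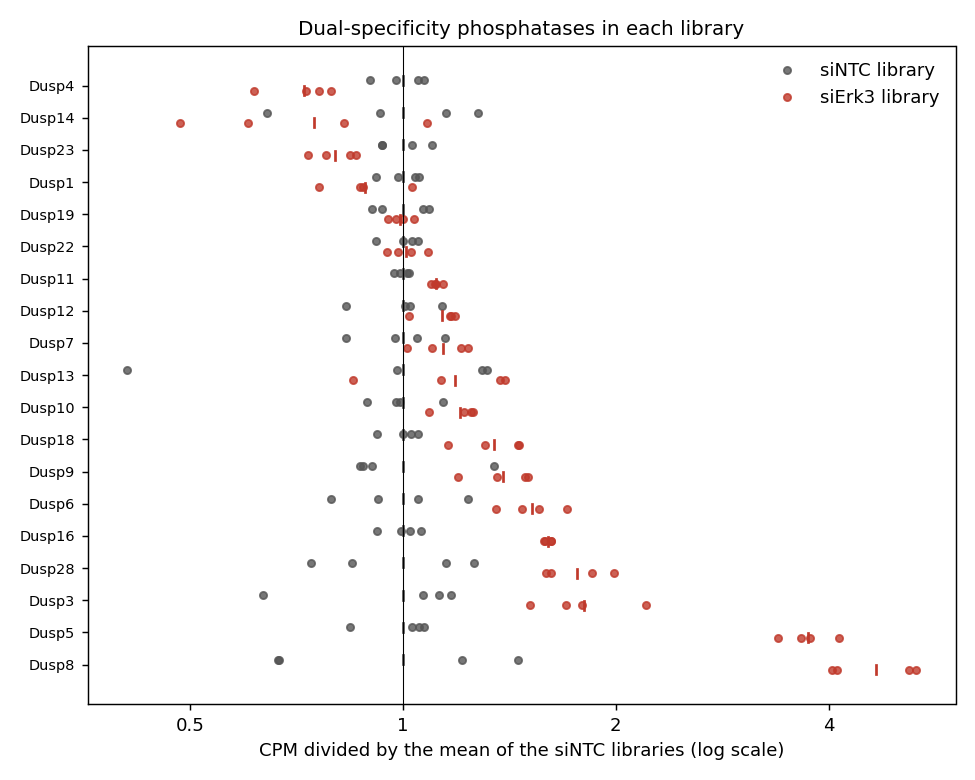
CPM of the 19 Dusp genes (y axis) in 4 siNTC (gray) and 4 siErk3 (red) libraries, divided by the siNTC mean (x axis, log scale), with short lines at group means. Dusp8 and Dusp5 lie at 4.67 and 3.74 times the siNTC mean, clear of the rest, and Dusp4 is the lowest at 0.73 times.

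Promoters from 250 bases before to 50 after the start, taken from RefSeq (GRCm38.p6), were found for 48 of the 57 symbols and were searched on both strands for 4 motifs. The interferon element (GAAA, any 2 bases, GAAA) was in 2 of the 48 (4.17%) and in 3.99% of 27025 genes. Both carriers, Mapk14 and Mapkapk3, were called higher, as were 24.9% of all genes tested. Both calls were lost with upper-quartile scaling (0.09 and 0.20). The motif stood on the reverse strand in each, in capitals below.
Mapk14: tgaaagcgtaTTTCCTTTTCggggagggag
Mapkapk3: ggagtgactcTTTCCCTTTCcttcaggtgc
These windows are chr17:28692529-28692558 (plus strand) and chr9:107289393-107289422 (minus strand). The cAMP response element TGACGTCA was also in 2 of the 48 (4.17%), against 2.03% of genes. Dusp8, which is in the table because of its siErk3 values, held it at 2 places, and Dusp1, which was not called, at 1.
Dusp8, distal: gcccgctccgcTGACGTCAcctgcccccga
Dusp8, proximal: ttggctgcaggTGACGTCAggggctttttc
Dusp1: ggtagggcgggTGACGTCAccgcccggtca
They are chr7:142095373-142095402, chr7:142095329-142095358 and chr17:26508597-26508626, all on the minus strand. The AP-1 motif TGANTCA was in 4 of 48 (8.33%), namely Dusp13, Map2k6, Map2k7 and Map3k10, and in 8.97% of genes, and the FOXO motif GTAAACA in no member and in 4.05% of genes. None of the motifs overlaps another in these windows, and a match shows only that the letters are present.

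Other genes of the pathway were taken from lists, whose counts stand beside 24.9% higher and 23.8% lower over all genes tested. Of 15 Ras and Raf genes 13 were measured, 3 higher, 2 lower and 8 not called. The kinase Braf rose from 49.2 ± 2.47 to 59.1 ± 1.18 CPM (SD, n = 4; 0.26, adjusted p = 4.46e-04), while the exchange factor Sos2 fell from 37.3 ± 1.59 to 25.9 ± 1.57 CPM (-0.53, adjusted p = 9.17e-07). Of 18 scaffolds and adaptors 16 were measured, 5 higher, 5 lower and 6 not called. Gadd45b, an activator of the p38 MAP3K MEKK4, rose from 1.54 ± 0.39 to 3.79 ± 0.45 CPM (1.30, adjusted p = 1.96e-05), and Taok3, a MAP3K-like kinase, by 0.72 (adjusted p = 3.77e-06). Tab3, a subunit of the TAK1 complex, fell from 30.7 ± 2.70 to 19.7 ± 2.22 CPM (-0.64, adjusted p = 1.59e-06), beside the fall of Map3k7.

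Of the 8 kinases downstream of ERK and p38, 2 were higher, 1 lower and 5 not called, while 48.7% of all genes tested were called. Rps6ka4 (MSK2) rose from 36.8 ± 1.03 to 48.9 ± 0.91 CPM (SD, n = 4; 0.41, adjusted p = 2.55e-06), Rps6ka1 (RSK1) rose by 0.28 (adjusted p = 0.0125), and Rps6ka5 (MSK1) was at -0.24 (adjusted p = 0.0494). Of 7 Sprouty and Spred inhibitors of Ras and Raf signaling 6 were measured, 2 higher, 1 lower and 3 not called. Spry2 rose from 9.78 ± 1.17 to 16.1 ± 0.95 CPM (0.71, adjusted p = 3.46e-06) and Spred1 from 28.5 ± 2.92 to 40.0 ± 4.61 CPM (0.49, adjusted p = 4.53e-05), while Spry4 fell from 32.3 ± 2.20 to 20.6 ± 2.08 CPM (-0.65, adjusted p = 5.77e-07).

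Of 18 transcripts known to respond to ERK 16 were measured, 5 higher, 4 lower and 7 not called, with a median log2 fold change of -0.10. Over all genes tested 48.7% were called. Of the 4 lower transcripts, Fosl1 (-1.29, adjusted p = 3.48e-10) and Ccnd1 (-0.82, adjusted p = 1.32e-06) fell most. The largest changes of this list were rises of immediate-early transcription factors. Egr1 went from 4.51 ± 0.43 to 24.0 ± 1.76 CPM (SD, n = 4; 2.41, adjusted p = 5.47e-15), Junb from 10.7 ± 1.01 to 41.8 ± 0.93 CPM (1.96, adjusted p = 8.00e-16) and Atf3 from 4.33 ± 0.64 to 14.3 ± 1.82 CPM (1.72, adjusted p = 1.92e-10). All 7 genes listed as partners of Erk3 were measured, 4 higher, 1 lower and 2 not called. Ccnd3, encoding the cyclin D3 that binds Erk3, rose from 109.9 ± 6.13 to 164 ± 6.28 CPM (0.58, adjusted p = 5.89e-09). The coactivator Ncoa3 (SRC-3) rose from 17.1 ± 1.07 to 27.2 ± 2.18 CPM (0.67, adjusted p = 3.70e-07) and the kinase Pak1 from 9.09 ± 0.64 to 15.2 ± 0.66 CPM (0.74, adjusted p = 1.17e-06).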

How the data were processed

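RNA was sequenced from 4 siErk3 and 4 siNTC libraries of 3T3-L1 adipocytes, made from polyadenylated RNA without strand information. The authors deposited raw counts per gene, which were used here. Their processing notes name bcl2fastq, FastQC, Bowtie2, edgeR and mm10, while the counting program, its annotation and its treatment of introns are not given in the sources used here. A deposited table of the authors' own comparison (log2 fold change, average log2 CPM, p-value, adjusted p-value) was not used.

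Counts were analyzed in R 4.3.3 with edgeR 4.0.16, using filterByExpr (minimum count 10, minimum total 15), TMM factors and the quasi-likelihood test over all 17972 genes that passed, with Benjamini-Hochberg adjustment and a threshold of 0.05. The common biological coefficient of variation was 6.08%. CPM are after TMM and are quoted per library or as mean and SD. Levels per kilobase used merged exon lengths of GENCODE M21, and annotation and motif searches used Python 3.11.15. Alternatives were DESeq2 1.42.0, limma-voom (limma 3.58.1), RLE, upper-quartile or no factors, other filters, the replicate number as a block and leaving out each library. Replicates differed by more than sampling noise in all 12 pairs (chi-square per gene 1.97 to 8.20).

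The members, lists and tests were chosen with earlier results of these data known. Named were all Mapk, Mapkapk and Map2k members, the called Map3k, Map4k and Dusp members with a log2 change of at least 0.3 or the 3 largest, the 2 most abundant uncalled members of each of these families, and the 3 called genes of largest change of each pathway list. A member of the Mapk family and a gene of the pathway lists enter the counts and sums but are not reported here. Dusp1, Dusp7, Dusp9 to Dusp14, Map3k1, Map3k4, Map3k6, Map3k12, Map3k20, Fosl1 and Ccnd1 were named after their values were seen. Marker lists are given by their counts and sums.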

Additional observations from a re-analysis of the deposited data

Results flagged for a closer look

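In 6 of 116 groups of 4 values (58 rows in each condition) the highest or lowest library lay farther from the others than Dixon's 95% critical value, and chance gives about 1 in 20, or 5.8. Mapk3 was at 74.9 CPM in siErk3 replicate 3, above 71.6 to 72.1 CPM in the others. Dusp5 was at 3.58 CPM in siNTC replicate 4, below 4.38 to 4.54 CPM. Dusp9 was at 3.23 CPM in siNTC replicate 1, above 2.09 to 2.17 CPM. Dusp12 was at 9.28 CPM in siErk3 replicate 1, below 10.6 to 10.8 CPM. Map3k6 was at 11.9 CPM in siNTC replicate 3, below 12.5 to 12.6 CPM. Map4k1 was at 1.97 CPM in siErk3 replicate 2, above 1.55 to 1.58 CPM. Of these, Dusp9 passed the threshold without that library (log2 fold change 0.65), and the others kept their side of it when the library was left out, except that Map3k6 was no longer called (-0.28).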

How the results depend on the processing

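Over the alternatives the number of members called higher lay between 16 and 26 and the number called lower between 10 and 17, no call changed direction, and Mapk6 stayed between -2.97 and -3.13. With each library left out in turn, 20 to 23 members were higher and 10 to 14 lower. DESeq2 called 22 higher and 11 lower, limma-voom 23 and 13, and RLE factors 22 and 13. The split moved with upper-quartile scaling (16 higher, 17 lower) and library size alone (26 and 11). Upper-quartile scaling ended the calls of Dusp10, Dusp11, Map2k2, Map3k4, Mapk14 and Mapkapk3. Map3k6 (-0.26, adjusted p = 0.0484) was lost in 7 of 8 fits with a library left out and with DESeq2, and Map3k1 (-0.19) without siNTC replicate 2 or siErk3 replicate 1, 3 or 4. Same-numbered libraries correlated at -0.016 to 0.055, and siNTC replicate 1 correlated best with siErk3 replicate 4 (0.061). These correlations are of deviations from the group mean of each gene, with 4 libraries per group. They cannot show whether same-numbered libraries shared a culture. With the replicate number as a block, 22 members were higher and 12 lower, and Map3k6 (-0.26) was no longer called. Members under about 5 CPM, such as Dusp13, Dusp14, Mapk11 and Map4k1, are limited by counts of 5 to 44 per library.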
